A study of Homo sapiens with 15 samples.

Results

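Subtelomeres are the stretches of chromosome just inside the terminal TTAGGG repeats. Here they were taken as non-overlapping 50 kb windows within 1 Mb of the first or last CpG listed for each autosome, leaving out the short arms of chromosomes 13, 14, 15, 21 and 22. A window was used where each of the 15 libraries had at least 50 reads at its CpGs, which kept 748 of 780 windows at 39 chromosome ends, out of 53629 windows used over all autosomes. Of the 32 windows left out, 11 lay at 1p and at most 3 at any other end, and 26 ends kept all 20 windows. Windows 5 to 10 Mb from the same ends, 3871 of 3900 by the same rule, served as the interior for comparison. The methylation level, mC, is the percentage of reads at CpGs that were read as methylated. A read is counted once at each CpG it covers, in all read counts given here.

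The cells were HCT116, an established human colorectal carcinoma line, in which doxycycline (dox) induces a short hairpin RNA (shRNA) that targets UHRF1 or DNMT1. For shUHRF1 there were 3 clonal populations, named Cl.3, Cl.6 and Cl.9. For shDNMT1 there were 2 bulk replicates, named R1 and R2. Each population was sequenced by whole-genome bisulfite sequencing at Baseline (day 14 without dox), at Knockdown (day 14 with 10 ng/mL dox) and at Recovery (day 28, being 14 days with dox and 14 days after its removal). The shRNA target and the clonal or bulk origin changed together, so their effects cannot be told apart. No library carries a non-targeting shRNA, and the levels of UHRF1 and DNMT1 are not analysed here.

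DNMT1 copies methylation onto the new DNA strand after replication, and UHRF1 brings it to hemimethylated CpGs. DNMT3B, a de novo methyltransferase, is known for methylating subtelomeric repeats, and loss of its function leaves them undermethylated. Human subtelomeres are rich in GC, in genes and in blocks of sequence copied between chromosome ends. The CpG-dense tandem repeats beside the terminal repeat are known as promoters of TERRA, the RNA transcribed from telomeres. Most of a cancer methylome falls into highly methylated domains (HMDs) and long stretches of incomplete methylation, the partially methylated domains (PMDs).

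A tandem repeat next to the chromosome end and 6 short stretches are printed to show what dense and isolated CpGs look like in the subtelomeres. All are from hg38 and run 5′ to 3′ with each CG in capitals. The repeat core is a CpG-dense run found on both strands near the ends. Its first copy at 1q lies at chr1:248944945-248944971 on the plus strand. Some repeated stretches with fewer CpGs had more copies than the longer stretches that hold this core.

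Terminal repeat core: CGCGcctctctgCGcctgCGcCGgCGc

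The core of 27 bases was present in 106 copies at 15 of the 39 ends, holding 636 CpGs, and 85 neighbouring copies started 29 bp apart. Its copies lay at a median of 0.67 kb from the first or last CpG. At some ends hg38 stops short of the terminal repeats, as at 14q with 160000 unassembled bases and at 16q with 110000. The count of ends with the core, and all distances from an end, therefore depend on where the assembly stops. The next 3 stretches, of 30 bases each on the plus strand, hold 1 CpG with no other within 35 bp. They had the largest mean fall in the shUHRF1 clones among 1433 such subtelomeric stretches with Baseline mC of at least 85% in all populations and at least 20 reads per CpG, so their falls are a description and were not tested.

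17q solo CpG (chr17:82337842-82337871): tattttataatattCGgaagttttaaaata

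17q solo CpG (chr17:82396650-82396679): aagttgtgtaatttCGagtcccaggaggct

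16q solo CpG (chr16:89762247-89762276): ttctaagtataaaaCGgctattttagtctg

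The last 3 stretches hold 4 or more CpGs in 30 bases. They had the smallest mean fall in the clones among 21 such stretches under the same limits.

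17q dense stretch (chr17:82849839-82849868): aagCGaagcagtagccccCGtgCGCGgcag

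3q dense stretch (chr3:197697584-197697613): ggctcCGttaCGgggctCGgccCGgcctta

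18p dense stretch (chr18:564094-564123): taaatcCGtgCGtgCGCGtgtgCGcacaca

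Libraries held 309268341 to 577680690 reads at autosomal CpGs. Subtelomeric CpGs were covered 8.53 to 17.8 times and interior CpGs 12.2 to 22.8 times. A window with the minimum of 50 reads and an mC of 80% has a Wilson 95% interval about 10.9 points to either side, which narrows to 2.48 points at 1000 reads. These intervals cover counting error only. They treat counts from the same read as separate, so they are too narrow. Populations were taken as replicates, and nothing states that R1 and R2 came from separate infections. Most exact tests over these few populations reach the smallest p possible, which depends on their number and direction and measures no spread. Window and promoter tests use the spread left after differences between populations are taken out, pooled over clones and bulk populations.

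At Baseline the subtelomeres were more methylated than the interior in every population. Subtelomeric mC was 78.9% in Cl.3, 80.5% in Cl.6, 74.9% in Cl.9, 77.6% in R1 and 77.5% in R2. The interior of the same libraries lay at 72.5%, 73.8%, 69.3%, 71.4% and 71.4%, so that the 2 sets did not overlap. The difference was 6.21 ± 0.417 percentage points (SD, n = 5), positive in 5 of 5 populations (exact two-sided sign-flip test, p = 0.0625, the smallest that 5 populations can give, adjusted p = 0.375 over 12 tests). It was smaller against other interiors, at 3.35 points against windows 2 to 5 Mb from the ends and 3.10 against those 10 to 20 Mb away, and 2.96 with the interior reweighted to the CpG counts of the subtelomeric windows. It did not differ measurably between shRNAs, the means being 0.0921 points apart (exact permutation test, p = 0.8). Among the 748 windows, mean Baseline mC was 80% or more in 363, 50 to 80% in 314 and 20 to 50% in 71, and 491 windows were at 70% or more in all 5 populations.

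The level was not even along the last megabase. In the first 50 kb, 28 windows had a mean Baseline mC of 64.2% ± 2.98 (SD, n = 5), and the next 50 kb had 72.0% ± 1.68. Methylation was 76.1% at 100 to 200 kb. Among the distance classes used, which are of unequal width, it was highest at 300 to 500 kb, at 79.8%. Beyond the subtelomere it was 75.4% at 1 to 2 Mb, 74.5% at 2 to 5 Mb, 71.7% at 5 to 10 Mb and 74.8% at 10 to 20 Mb, so the interior used for comparison was the lowest of these. The outermost 50 kb thus lay below the interior while the windows beyond 100 kb lay above it. The outermost windows were also the least covered, at 7.02 reads per CpG, and 60.6% of their sequence lay in Baseline PMDs, against 21% at 500 to 750 kb. The part of coverage and of PMD calls in the profile was not tested.

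**Figure D1:**
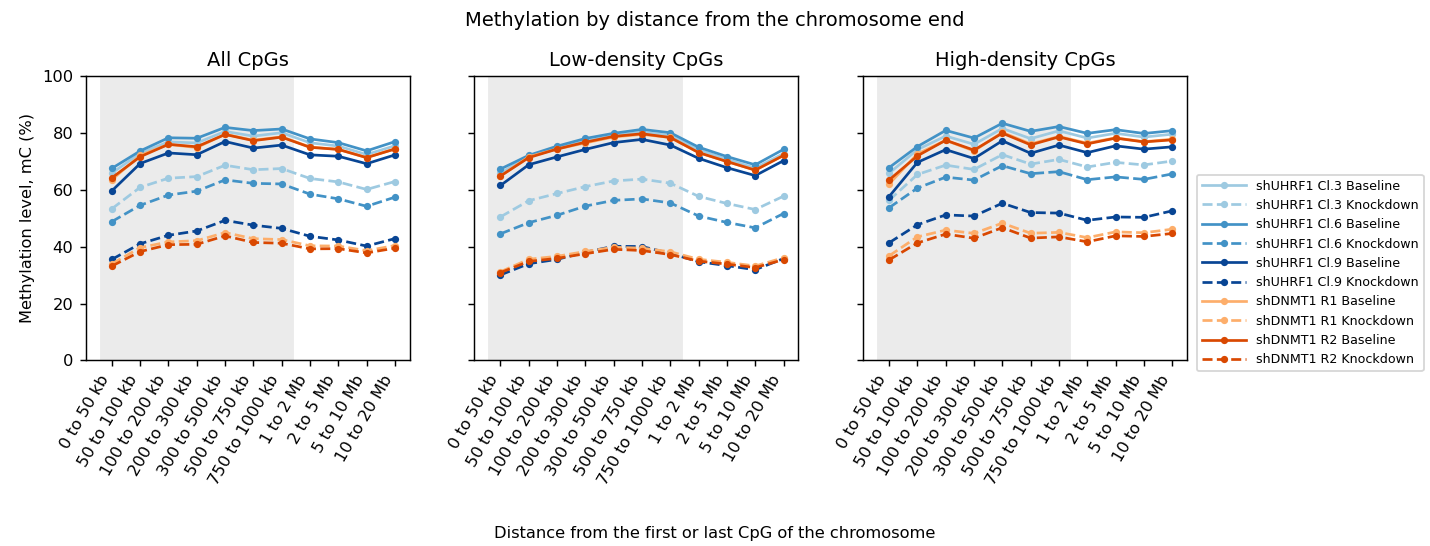
Methylation level (mC, %) against distance from the first or last CpG of the chromosome, for all CpGs, low-density CpGs and high-density CpGs, with 1 line per population at Baseline (solid) and Knockdown (dashed) and the subtelomere shaded. Mean Baseline mC was 64.2% in the outermost 50 kb and 79.8% at 300 to 500 kb, and every Knockdown line lies below its Baseline line.

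Over all windows, the difference from the interior was larger at low-density CpGs, those with no other CpG within 20 bp. Their subtelomeric mC exceeded that of interior low-density CpGs by 10.7 points in Cl.3, 10.5 in Cl.6, 10.5 in Cl.9, 10.8 in R1 and 10.9 in R2. PMD windows are those that were 50% or more PMD at Baseline in any population. Without them the direction turned in all 5 populations, at -0.33, -0.39, -0.58, -0.42 and -0.43 points. For high-density CpGs the differences over all windows were 0.66, 1.38, -0.02, 0.44 and 0.35 points. Low-density CpGs were 32.6% of subtelomeric CpGs and 49.6% of interior CpGs. The subtelomeres held 21.1 CpGs per kb against 12.5 in the interior and 9.96 over all windows, and 17.8 starts of protein-coding genes per Mb against 8.65 and 7.07. Their GC content was 48.5%, against 43.4% in the interior.

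Subtelomeric sequence was less often in a PMD. The share in PMDs at Baseline averaged 27.9% against 42.2% in the interior, and 205 windows (27.4%) were more than 50% PMD against 1777 interior windows (45.9%). The domains were called from the same reads as mC, so this is a description. Among windows with under 10% PMD, the 399 subtelomeric windows had a mean mC of 81.6% ± 2.30 and the 1712 interior windows 84.3% ± 1.81 (SD, n = 5). Among windows with over 90% PMD, 55 subtelomeric windows were at 60.5% ± 2.04 and 720 interior windows at 51.4%. Subtelomeres were thus lower than the interior outside PMDs and higher inside them. Without windows that were 50% or more PMD at Baseline in any population, 495 subtelomeric and 1900 interior windows were left. The Baseline difference was then -2.70 points, and the windows kept could still be partly PMD.

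**Figure D2:**
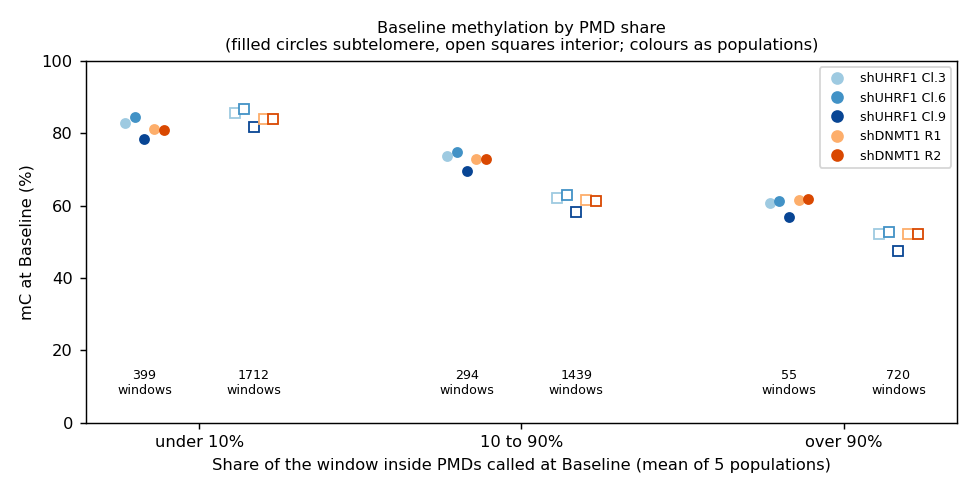
Baseline mC (%) of subtelomeric windows (filled circles) and interior windows (open squares) by the share of the window inside Baseline PMDs, 1 point per population. In windows with under 10% PMD the subtelomeres average 81.6% and the interior 84.3%, and in windows with over 90% PMD they average 60.5% and 51.4%.

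Chromosome ends differed widely from each other. Mean Baseline mC ran from 36.4% at 3p to 88.4% at 10p, with a median of 79.1% over the 39 ends. At 24 ends the subtelomere was above its own interior in all 5 populations, at 9 ends it was below in all 5, and at 6 ends the populations differed in direction. The lowest ends after 3p were 14q at 41.3%, 1q at 48.5% and 4q at 64.2%. The highest after 10p were 17p at 85.5%, 18q at 85.4% and 2q at 84.9%.

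The ends 3p and 10p mark the extremes. At 3p, where 83.1% of sequence lay in PMDs, Baseline mC was 37.3% in Cl.3, 40.0% in Cl.6, 30.2% in Cl.9, 37.0% in R1 and 37.4% in R2, against an interior mean of 81.5%. At 10p, with 7.74% in PMDs, it was 89.0%, 90.5%, 86.1%, 88.2% and 88.0% in the same order, against an interior mean of 61.2%. All 5 populations placed 3p far below and 10p far above their own interiors. The end 14q, with 81.2% in PMDs, resembled 3p, at 36.6% to 43.9% against an interior mean of 75.6%. Over the 39 ends, mean Baseline mC and PMD share had a Pearson r of -0.807 and a Spearman rho of -0.649, and -0.736 and -0.589 without 3p and 14q. Both measures come from the same libraries, so the correlation is a description.

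**Figure D3:**
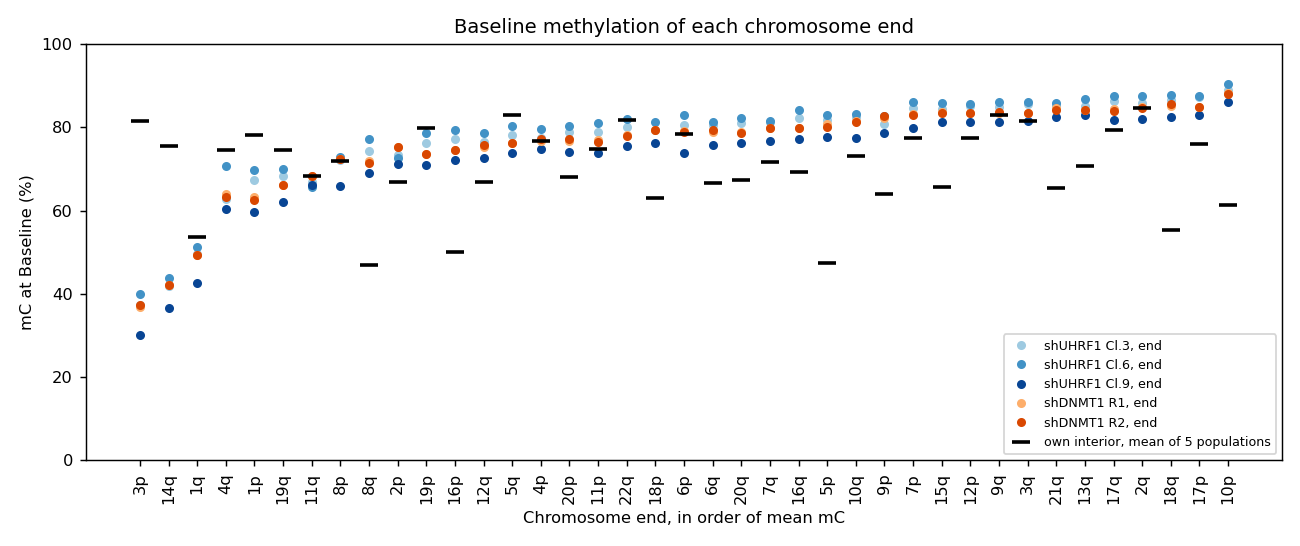
Baseline mC (%) of the 39 chromosome ends in order of their mean, with 1 point per population and a bar for the mean of the interior of the same end. Ends 3p (36.4%) and 14q (41.3%) lie far below their interiors, and 10p (88.4%) far above its own.

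At Knockdown, subtelomeric methylation was lower with both shRNAs in every population. Subtelomeric mC was 66.8% in Cl.3, 61.6% in Cl.6, 46.9% in Cl.9, 42.9% in R1 and 41.6% in R2, each below every Baseline value. The change was -19.7 ± 7.96 points in the shUHRF1 clones (SD, n = 3) and -35.3 ± 0.845 in the shDNMT1 populations (SD, n = 2). The interior changed by -20.3 ± 8.38 and -33.2 ± 0.531 points. The subtelomeric change was therefore 0.585 ± 0.424 points smaller than the interior change in the clones, in 3 of 3, and 2.15 ± 0.314 points larger in the bulk populations (change difference -2.15), in 2 of 2. Single ends did not follow the pooled direction of the clones. The fall was larger than in the end's own interior at 21 of 39 ends in Cl.3, 20 in Cl.6, 21 in Cl.9, 26 in R1 and 26 in R2. As a share of Baseline, the subtelomeres kept 74.6% of their Baseline level in the clones and 54.5% in the bulk populations, against 71.6% and 53.6% in the interior, a difference of 2.17 ± 1.54 points (SD, n = 5), positive in 5 of 5 (exact sign-flip test, p = 0.0625, adjusted p = 0.375 over 12 tests). This difference was 0.82 points at low-density CpGs, 1.04 at high-density CpGs, 0.79 without PMD windows and 0.20 within 100 kb of the ends, where it was positive in 2 of 5. Without PMD windows it was negative in all 5 populations at low-density CpGs (-0.57) and at high-density CpGs (-0.61) taken apart.

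Exact sign-flip tests gave p = 0.25 for 3 clones and p = 0.5 for 2 bulk populations, the smallest such groups can give. The 2 shRNAs were 2.74 points apart in this difference (exact permutation test of 3 against 2 populations, p = 0.2, the smallest possible, adjusted p = 0.375 over 12 tests). With low-density CpGs alone the clones' difference turned to -2.55 points, and with high-density CpGs alone the bulk difference turned to 0.0511. With the interior reweighted to the CpG counts of the subtelomeric windows they were -0.0920 and 0.235 points. Without PMD windows the bulk difference was 1.89 points and within 100 kb of the ends it was 1.2. On the log2 odds scale the clones' difference was -0.0765. Without PMD windows the clones' difference was larger, at 0.67, 1.02 and 2.35 points in Cl.3, Cl.6 and Cl.9. At high-density CpGs it was also larger, at 0.38, 0.89 and 1.96 points. With equal weight per window the clones' difference was 0.0379 points, at 0.0948 in Cl.3, 0.0156 in Cl.6 and 0.00326 in Cl.9. Without Cl.9 it was 0.377 points. The bulk difference was -0.817 and -0.824 points against interiors 2 to 5 Mb and 10 to 20 Mb from the ends, and -5.62 at low-density CpGs. The direction of both thus changed with the setting.

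**Figure D4:**
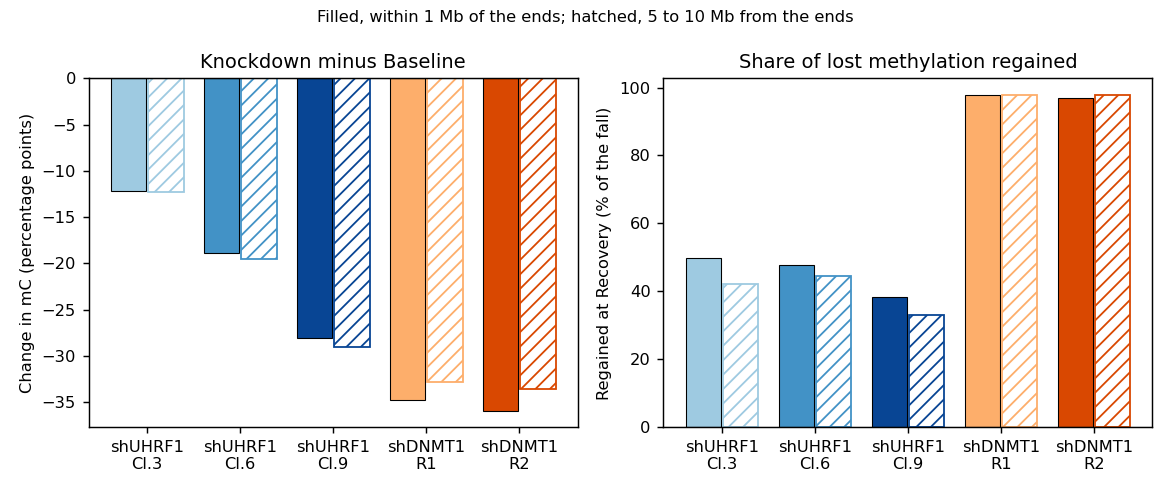
Left, change in mC from Baseline to Knockdown in percentage points, and right, the share of that loss regained at Recovery in percent, for each population, with the subtelomere filled and the interior hatched. Subtelomeric changes averaged -19.7 points with shUHRF1 and -35.3 with shDNMT1, and the regained share averaged 45.3% and 97.4%.

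Within the subtelomere, the change at Knockdown was larger at low-density than at high-density CpGs in all 5 populations. For low-density CpGs the change was -16.3 points in Cl.3, -24.2 in Cl.6, -37.1 in Cl.9, -39.2 in R1 and -40.1 in R2. For high-density CpGs it was -9.42 points in Cl.3, -15.3 in Cl.6, -22.1 in Cl.9, -31.9 in R1 and -33.4 in R2. Clone Cl.9 thus approached the bulk populations at low-density CpGs and stayed well short of them at high-density CpGs. The interior showed the same. Its low-density CpGs changed by -33.2 points in Cl.9, -33.8 in R1 and -34.3 in R2. Its high-density CpGs changed by -24.0, -32.1 and -33.3 points in the same order.

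The printed stretches, picked for their falls in the clones, illustrate the range at single sites. At the first 17q solo CpG, covered by 21 to 52 reads, mC was 100% at Baseline and 23.8% at Knockdown in Cl.3, 95.7% and 12.5% in Cl.6, 92.0% and 7.69% in Cl.9, 100% and 26.2% in R1, and 92.7% and 27.3% in R2. At the 17q dense stretch, covered by 84 to 280 reads over its 4 CpGs, the same pairs were 98.9% and 99.0%, 98.9% and 95.7%, 99.3% and 97.7%, 98.4% and 81.9%, and 97.0% and 82.1%. The contrast between these stretches follows from how they were picked and supports nothing further. The 18p dense stretch, with 5 CpGs, was at 96.9%, 96.9% and 91.8% at Knockdown in the clones and at 86.9% and 85.8% in R1 and R2.

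The stretches of each kind come from ends other than 8p and 8q. Among them, the median change of solo CpGs was -12.0, -21.3, -39.6, -46.7 and -47.7 points in Cl.3, Cl.6, Cl.9, R1 and R2. The 21 dense stretches had medians of -5.02, -6.32, -13.5, -23.1 and -24.5 points. Both kinds started at 85% or more in every population.

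At Knockdown the terminal repeat core was above 90% in the clones and below 50% in the bulk populations. Its mC, pooled over copies, was 98.9% at Baseline and 94.0% at Knockdown in Cl.3, 79.5% and 94.8% in Cl.6, and 77.6% and 94.9% in Cl.9. In R1 it was 78.6% and 33.2%, and in R2 78% and 45.7%. Wilson 95% intervals at Knockdown were 87.5 to 97.2% in Cl.3, 88.4 to 97.8% in Cl.6 and 89.8 to 97.5% in Cl.9, against 28.6 to 38.1% in R1 and 41.0 to 50.4% in R2. All 3 clones were thus above both bulk populations at Knockdown. Pooled over all copies, the mean change was 9.22 ± 12.3 points in the clones (SD, n = 3) and -38.9 ± 9.29 in the bulk populations (SD, n = 2; exact permutation test, p = 0.2, the smallest possible). At Recovery the core was at 98.5%, 90.1%, 96.9%, 87.3% and 98.3%.

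The lower Baselines came from the copies at 21q. There, with a read counted at each CpG it covers, 0 of 25 counts were methylated in Cl.6 and 17 of 60 in Cl.9 at Baseline. In R1 and R2 it was 0 of 22 and 0 of 27, and no Cl.3 read covered them. Such small counts can come from very few reads. At Knockdown 15 of 20 were methylated in Cl.3, 20 of 24 in Cl.6, 19 of 26 in Cl.9, 6 of 23 in R1 and 53 of 95 in R2. Without 21q, a setting chosen after seeing the data, Baseline mC was 98.9%, 100%, 100%, 100% and 98.1% in Cl.3, Cl.6, Cl.9, R1 and R2. Knockdown mC was then 98.8%, 98.6%, 100%, 33.6% and 42.8%. The mean change was -0.51 ± 0.76 points in the clones (SD, n = 3) and -60.8 ± 7.85 in the bulk populations (SD, n = 2). The rise from Baseline to Knockdown in Cl.6 and Cl.9 thus rested on 21q.

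Coverage of the repeat core was very low, at 59 to 429 reads per library over 636 CpGs. The Knockdown libraries of R1 and R2 stood apart with 377 and 429 reads, against at most 192 in any other library. Their methylated reads were 125 and 196, against 81 and 103 at Baseline, so the lower mC went with more unmethylated reads and not with fewer methylated ones. The part of this in the change was not tested. These counts are summed over CpGs, and a read can span several copies 29 bp apart. The separate reads were therefore fewer than the counts, and the Wilson intervals above are too narrow. The reads came from 3 to 10 of the 15 ends in each library, with 22.1 to 60.6% from a single end, and the ends covered differed between libraries. Copies are near identical, so a read cannot be placed among them with certainty.

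**Figure D5:**
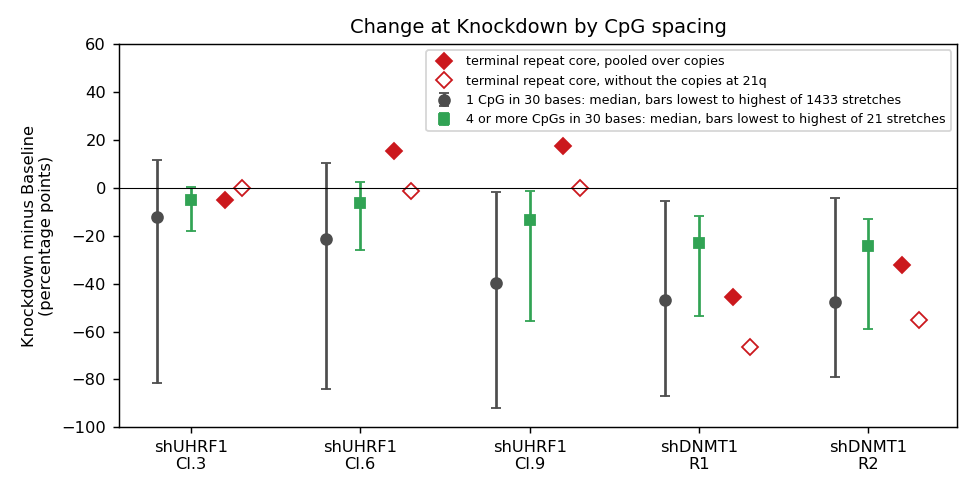
Change in mC from Baseline to Knockdown (percentage points) in each population for 1433 solo-CpG stretches and 21 dense stretches (median, with bars from lowest to highest) and for the terminal repeat core pooled over all copies (filled diamond) or without those at 21q (open diamond). Over all copies the core changed by -4.90 points in Cl.3, 15.3 in Cl.6 and 17.3 in Cl.9. Without 21q it changed by -0.15, -1.39 and 0 points. The solo-CpG and dense stretches leave out 8p and 8q.

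The fall was called in every subtelomeric window tested. All 748 windows, which leave out the 32 with too few reads, were called lower at Knockdown with shUHRF1 by edgeR's quasi-likelihood test on methylated and unmethylated reads (Benjamini-Hochberg adjusted p under 0.05), where the call rate over all autosomal windows was 100%. All 748 were also called lower with shDNMT1, again against a rate of 100%. These shares are the background's own. In 747 windows all 3 clones fell. The exception was the outermost window of 22q, where Cl.3 went from 59.6% to 65.4% while Cl.6 fell from 72.7% to 55.3% and Cl.9 from 64.3% to 43.1%. In all 748 windows both bulk populations fell. Neither of these counts of falling windows was made over all autosomal windows, so neither sets the subtelomeres apart. Window changes ran from -30.5 to -10.8 points with shUHRF1, median -19.8, and from -56.1 to -14.9 with shDNMT1, median -36.5.

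The change differed between shRNAs in 609 windows (81.4%), all with the smaller fall in the clones, against 63.5% of all autosomal windows and 2275 of 3871 interior windows (58.8%). The size of the difference was close to the background, with a median log2 odds ratio of 0.918, against 0.890 over all windows and 0.812 in the interior. Subtelomeric windows held more CpGs, 21.1 per kb against 9.96 over all windows. The part of this in the share called was not tested. The count of 609 was not stable. It was 0 without the population block (147 at an unadjusted p under 0.05), 0 without R1 and 0 without R2. It was 390 without Cl.6 (52.1%, against 41.2% of all windows) and 570 without Cl.3 (76.2%, against 58.7%). Without Cl.9 it was 715 (95.6%), close to the 93.6% of all windows and the 94.2% of the interior. limma called 597 (79.8%, against 63.9%). With low-density CpGs alone, 386 of 744 windows were called (51.9%), against 54.0% of all windows and 45.5% of the interior, so the share was above the interior but not above all windows.

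The named windows had Baseline mC of at least 70% in all populations. The largest fall with shUHRF1 was in the outermost window of 2q (chr2:242133396-242183395), where mC at Baseline and Knockdown was 95.3% and 76.3% in Cl.3, 95.7% and 68.7% in Cl.6 and 96.1% and 50.4% in Cl.9. In the same window it was 95.8% and 54.3% in R1 and 92.9% and 49.5% in R2, from 100 to 236 reads per library. The log2 odds ratio was -3.68 ± 0.41 (SE) with shUHRF1, edgeR adjusted p = 1.57e-18. The next 3 were windows 20, 19 and 17 from the end of 20p, with changes of -29.4, -29.0 and -28.8 points. Window 19 holds the start of RSPO4, a secreted activator of Wnt signalling, and window 17 overlaps ANGPT4, a ligand of the TIE2 receptor, without its start. These 3 lie toward the inner edge of the subtelomere and had at least 6600 reads in every library.

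The smallest falls with shUHRF1 were at 19q and in windows nearer the end. Windows 8 and 7 of 19q, which overlap the zinc finger genes ZNF274, ZNF544 and ZNF8, changed by -11.6 and -12.5 points. Window 3 of 9p, with the forkhead gene FOXD4 and with ZNG1A, changed by -12.8 points, and the outermost window of 15q by -13.6. In window 8 of 19q (chr19:58207473-58257472) the clones went from 82.1%, 80.2% and 75.1% to 74.5%, 69.3% and 58.6%, and the bulk populations from 76.9% and 77.0% to 50.3% and 47.0%. The difference between shRNAs in this window was 0.96 ± 0.29 (log2 odds ratio, SE; edgeR adjusted p = 0.0032). Its fall was also among the 4 smallest with shDNMT1, at -28.3 points.

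With shDNMT1 the largest falls were in the outermost window of 19p (-56.1 points), which holds the start of the olfactory receptor gene OR4F17, and in window 3 of 8p (-53.9 points), with OR4F21. Both genes belong to a family copied between chromosome ends, and these windows had few reads, 72 to 134 and 125 to 526. Window 17 of 8q, with MROH1, BOP1 and SCX, followed at -49.9 points, and window 17 of 17p, with NXN, a thioredoxin-family gene, at -49.7 points. In that 8q window the clones went from 95.5%, 96.0% and 92.9% to 80.8%, 74.9% and 55.8%, and R1 and R2 from 94.5% and 94.6% to 44.8% and 44.4%. The smallest shDNMT1 falls after window 8 of 19q and window 10 of 4p (-27.6 points, with ZNF721 and PIGG) were window 12 of 18q (-30.4, with CTDP1) and window 19 of 12p (-30.7, with WNK1 and RAD52).

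By chromosome end, mC was lower at Knockdown in all 5 populations at 39 of 39 ends. The order of the clones was the same at every end, Cl.9 changing most and Cl.3 least, and at 38 ends both bulk populations changed more than every clone. The pooled interior had the same order, at -12.3 points in Cl.3, -19.5 in Cl.6, -29.0 in Cl.9, -32.8 in R1 and -33.5 in R2. Ends of the same library are not replicates. With shUHRF1 the largest changes were at 10q (-24.1 points), 2p (-23.3), 11q (-22.9) and 5p (-22.6), and the smallest at 3p (-14.7), 19q (-14.9), 14q (-15.7) and 1q (-16.3). With shDNMT1 the largest were at 17p (-39.7), 2q (-38.9), 5p (-38.8) and 10q (-38.6), and the smallest at 3p (-18.6), 14q (-20.7), 1q (-23.4) and 19q (-28.6). The same 4 ends changed least under both shRNAs. Ends with a higher Baseline changed more with shDNMT1, and only weakly so with shUHRF1. Pearson r between Baseline mC and change over the 39 ends was -0.957 with shDNMT1 (rho -0.830) and -0.556 with shUHRF1 (rho -0.284). Without 3p and 14q, r and rho were -0.900 and -0.801 with shDNMT1 and -0.316 and -0.163 with shUHRF1. Baseline enters both measures, so these are descriptions.

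At Recovery the shDNMT1 populations were back near Baseline and the clones were not. Subtelomeric mC was 72.8% in Cl.3, 70.6% in Cl.6, 57.6% in Cl.9, 76.8% in R1 and 76.5% in R2. Relative to Baseline this was a change of -11.1 ± 5.68 points in the clones (SD, n = 3) and -0.928 ± 0.222 in the bulk populations (SD, n = 2). Of the methylation lost at Knockdown, the subtelomeres regained 49.7% in Cl.3, 47.8% in Cl.6 and 38.3% in Cl.9, against 42.1%, 44.5% and 32.9% in the interior. In R1 and R2 they regained 97.8% and 97.0%, against 97.8% and 97.8%. The clones' share was thus 5.42 ± 2.21 points higher in the subtelomeres, in 3 of 3 clones (exact sign-flip test, p = 0.25, the smallest possible), and the shRNAs were 5.81 points apart in this difference (exact permutation test, p = 0.2). The clones' difference was -0.728 points with the interior reweighted to the CpG counts of the subtelomeric windows, and -0.889 within 100 kb of the ends. It was 3.11 at low-density CpGs and 2.83 against an interior 10 to 20 Mb from the ends. Without PMD windows it was 0.12, at 3.02 in Cl.3, -1.58 in Cl.6 and -1.07 in Cl.9.

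Of the 748 windows, 739 (98.8%) were still lower than Baseline at Recovery with shUHRF1, against 98.4% of all windows. Without the population block it was 491 (65.6%), against 69.0% of all windows. With shDNMT1 edgeR called 0 windows (0.00186% of all windows), with 5 at an unadjusted p under 0.05, and limma called 2 (0.267%, against 0.0242% of all windows). The end 3p regained 14.9% in the clones and 14q 20.3%, whereas 10p regained 53.4%, with a median of 45.8% over the ends. The regained share in the bulk populations was 94.9 to 98.8% at every end. Over the 39 ends, PMD share and the clones' regained share had a Pearson r of -0.915 (rho -0.841), and -0.900 without 3p and 14q.

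In the clones, windows outside PMDs regained more. In Cl.9, subtelomeric windows with under 10% PMD regained 47.4%, those with 10 to 90% regained 27.6% and those with over 90% regained 17.4%. In Cl.3 the first class regained 57.2% and the others 40.7% and 33.7%. The bulk populations did not show this order, at 97.7%, 97.6% and 97.7% in R1 and 96.5%, 97.5% and 98.2% in R2 over the same classes. The clones' order was also that of the interior, at 47.2%, 23.2% and 15.3% in Cl.9 and 53.2%, 34.3% and 28.3% in Cl.3. The subtelomeric classes also differed in CpG density, at 25.2, 17.2 and 12.9 CpGs per kb. The part of this in the regained share was not tested. At 3p, which is mostly PMD, mC in Cl.9 was 30.2% at Baseline, 13.1% at Knockdown and 15.2% at Recovery, and in R1 it was 37.0%, 18.6% and 36.8%. At 10p, Cl.9 went from 86.1% to 56.8% and 71%, and R1 from 88.2% to 50.5% and 87.1%.

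The domain calls followed the levels they were made from. At Baseline, HMDs took up 65.8% of the subtelomeres in Cl.3, 63.9% in Cl.6, 64.7% in Cl.9, 60.3% in R1 and 60.7% in R2. In the same order, the shares were 38%, 16.6%, 0.0179%, 0.0330% and 0.00557% at Knockdown, and 54.0%, 48.1%, 25.1%, 58.6% and 58.7% at Recovery. Cl.9 and both bulk populations thus had almost no subtelomeric HMD at Knockdown. The same held over all autosomal windows, at 0.00951% in Cl.9, 0.00580% in R1 and 0.00560% in R2, with 33.3% in Cl.3 and 9.19% in Cl.6.

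Subtelomeres are gene-rich, and 664 protein-coding genes had their 5′ end in a window used. Promoters were taken from 1 kb before to 100 bp after the outermost 5′ end of a gene, which need not be the start used in these cells, and 617 had enough CpGs and reads to test. Baseline mC was under 20% in 242 (39.2%, against 35.2% of all promoters), 20 to 70% in 198 (32.1%, against 31.3%) and 70% or more in 177 (28.7%, against 33.5%). At Knockdown 490 (79.4%) were called lower with shUHRF1, against 85% of all 17849 promoters, and 503 (81.5%) with shDNMT1, against 86.9%. The change differed between shRNAs in 70 (11.3%), all with the smaller fall in the clones, against 9.64% of all promoters. That count was 0 without the population block, 0 without R1 and 0 without R2. It was 25 without Cl.3 (4.05%, against 3.85% of all promoters), 33 without Cl.6 (5.35%, against 5.32%) and 155 without Cl.9 (25.1%, against 22.8%). limma called 11 (1.78%), below the 2.46% of all promoters. At Recovery 402 (65.2%, against 65.3%) were still lower with shUHRF1, or 196 without the population block (31.8%, against 29.9%). With shDNMT1, edgeR called 0 promoters at Recovery (0% of all promoters), with 30 at an unadjusted p under 0.05, and limma called 0.

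Among promoters with Baseline mC of at least 70% in all populations, the largest fall with shUHRF1 was at RACK1, at the end of 5q (chr5:181247996-181249096). RACK1 encodes a scaffold protein of the ribosome. The stretch measured, with 20 CpGs, lies at its outermost 5′ end, which need not be the start used in these cells. Its mC at Baseline and Knockdown was 97.4% and 48.9% in Cl.3, 86.8% and 52.3% in Cl.6, 92.8% and 24.6% in Cl.9, 89.4% and 23.6% in R1 and 89.6% and 30.7% in R2. All Knockdown values lay below all Baseline values, and the mean changes of -50.4 and -62.4 points were not called different between shRNAs (edgeR adjusted p = 0.82). At Recovery RACK1 was at 67.1%, 67.4% and 33.6% in the clones and 86.2% and 78.7% in R1 and R2. It was followed by TUBB3, a neuronal tubulin, at 16q (-42.0 points), SRMS, a non-receptor tyrosine kinase, at 20q (-37.8), and IL17REL (-34.8) and ODF3B (-34.6) at 22q. SCX, a transcription factor of tendon cells, at 8q (-34.5), LRCOL1 at 12q (-34.0) and NINJ2, a cell adhesion gene, at 12p (-33.7) completed the group. All 8 were called lower with both shRNAs, where 85% and 86.9% of all promoters were. They were picked for their falls in the clones, so these calls add no support.

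With shDNMT1 the largest fall was at RHBDL1, a gene of the rhomboid family, at 16p (chr16:674671-675771). Its mC went from 96.5%, 95.3% and 90.1% to 76.4%, 67.6% and 47.6% in the clones, and from 95.1% and 94.7% to 11.8% and 26.5% in R1 and R2. The mean changes were -30.1 and -75.8 points, and they differed between shRNAs by 3.07 ± 0.62 (log2 odds ratio, SE; edgeR adjusted p = 0.0082). SCX (-65.9), RACK1 (-62.4), SH3YL1 at 2p (-61.4), GAL3ST2, a sulfotransferase gene, at 2q (-60.8), PLPPR3 at 19p (-60.3), PGAP6 at 16p (-59.4) and SLC52A2, a riboflavin transporter gene, at 8q (-59.4) followed. Of these 8, RHBDL1, SH3YL1 and PLPPR3 were called different between shRNAs, each with the smaller fall in the clones, as were 9.64% of all promoters. The 8 were picked for their falls with shDNMT1, which favours such calls.

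The smallest falls with shUHRF1 in this class were at SNTG2, a syntrophin gene, at 2p (-6.94 points), TMEM271 at 4p (-7.96), IRF4, a transcription factor of lymphocytes, at 6p (-10.4), the zinc finger genes ZNF132 (-11.0) and ZNF256 (-11.4) at 19q, and ERICH1 at 8p (-11.5). Depth was low at SNTG2, at 58 to 523 reads per library over 108 CpGs, and at TMEM271, at 70 to 230 over 99. SNTG2 did not pass the test in the clones (edgeR adjusted p = 0.094). Its mC at Baseline and Knockdown was 87.9% and 88.4% in Cl.3, 83.1% and 80.4% in Cl.6 and 79.5% and 60.9% in Cl.9, so that only Cl.9 was well below its Baseline. In R1 and R2 it was 94.7% and 57.6%, and 85.3% and 53.0%. All 6 fell with shDNMT1, by means of 30.3 to 40.2 points.

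Among families at the ends of chromosomes, a list of 25 zinc finger genes of 1q, 4p, 12q and 19q, most of them KRAB-type repressors of transposons and genes, had 22 promoters tested. The list does not hold every zinc finger gene of these ends, such as ZNF256, ZNF274 and ZNF544. Of these 20 were called lower with shUHRF1 and 21 with shDNMT1, against 85% and 86.9% of all promoters. Their median Baseline mC was 34.6%, near the 35.6% of all promoters. Their median changes were -10.6 and -13.7 points, against -11.7 and -19.3 over all promoters, and 8 had a mean Baseline mC of at least 50%. ZNF132 was at 95.3%, 99.0% and 97.7% at Baseline and 92.0%, 89.2% and 77.8% at Knockdown in the clones, and at 92.9% and 95.1% against 50.1% and 57.5% in R1 and R2. ZNF605 (-13.5 and -38 points) and ZNF140 (-11.5 and -32.1) at 12q were the 2 whose change differed between shRNAs. ZNF10 (-12.7 and -35.9), ZNF891 (-13.1 and -34.7), ZNF141 (-14.5 and -32.3) and ZNF718 (-14.3 and -35.9) had like values, the test of the difference giving edgeR adjusted p = 0.075, 0.11, 0.079 and 0.051. ZNF732 at 4p changed by -15.6 points with shUHRF1 and -6.25 with shDNMT1, and did not pass the test in the bulk populations (edgeR adjusted p = 0.29). Its difference between shRNAs, -0.57 ± 0.43 (log2 odds ratio, SE), did not pass either (edgeR adjusted p = 0.36).

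The beta-defensin genes at 20p, which encode antimicrobial peptides, had 5 of 6 promoters tested, and all 5 were called lower with both shRNAs, where 85% and 86.9% of all promoters were. Their median Baseline mC was 79.7%, against 35.6% over all promoters, and a promoter with little methylation can lose little. Their median changes were -28.7 and -41.9 points, against -22.3 and -42.1 over the 5983 promoters with a mean Baseline mC of 70% or more and -11.7 and -19.3 over all promoters. DEFB127 went from 98.3%, 97.5% and 83.4% to 72.6%, 68.1% and 45.9% in the clones, and from 91.3% and 87.2% to 37.3% and 57.4% in R1 and R2. At Recovery it was at 75.6%, 70.2% and 45.1% in the clones and 77.5% and 81.0% in R1 and R2. The change differed between shRNAs at DEFB129, at -23.2 and -44.4 points.

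The neutrophil granule genes at 19p, with CFD and GZMM beside them, had 5 of 5 promoters tested and called lower with both shRNAs, again where 85% and 86.9% of all promoters were. Their median Baseline mC was 86.5%. Their median changes were -23.7 and -46.6 points, against -22.3 and -42.1 over promoters with a Baseline of 70% or more. GZMM, a granzyme gene, and AZU1, which encodes azurocidin, were called different between shRNAs, at -13.9 and -43.8, and -19.9 and -50.3 points. ELANE, the neutrophil elastase gene, had the like changes of -42.9 and -38.6 points, from 66.4%, 57.9% and 67.6% to 31.4%, 18.9% and 12.9% in the clones. PRTN3, the proteinase 3 gene, changed by -32.2 and -50.4 points and CFD, complement factor D, by -23.7 and -46.6.

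The interferon-linked genes at 11p and 1p had 7 of 7 promoters tested, with 7 called lower with shUHRF1 and 6 with shDNMT1, against 85% and 86.9% of all promoters. Their median Baseline mC was 53.2%. Their median changes were -18.5 and -31.5 points, against -12.6 and -20.0 over the 5580 promoters with a Baseline of 20 to 70%. That class does not hold all 7, since IFITM3 lay above it and ISG15 below it. Promoters with a Baseline of 70% or more had medians of -22.3 and -42.1 points. IFITM3, an antiviral membrane protein, went from 97.9%, 96.1% and 95.1% to 77.2%, 64.5% and 56.4% in the clones and from 92.9% and 94.9% to 41.2% and 44.7% in R1 and R2. IFITM5 (-27.2 and -45.0 points), IFITM2 (-15.4 and -32.6) and SIGIRR (-18.5 and -31.5) also started at 50% or more. ISG15, a ubiquitin-like interferon-induced gene, was nearly unmethylated at Baseline, at a mean of 1.37%. In the alpha-globin cluster at 16p, 2 of 5 promoters were tested, and HBZ, the embryonic zeta-globin gene (-14.4 and -32.0 points), and HBQ1 (-14.4 and -47.7) were called lower with both shRNAs, where 85% and 86.9% of all promoters were.

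Of 20 genes of the families copied between chromosome ends, 5 had a promoter tested, with 4 called lower with shUHRF1 and 5 with shDNMT1, against 85% and 86.9% of all promoters. Their median Baseline mC was 28.0%, and their median changes were -8.67 and -19.3 points, against -11.7 and -19.3 over all promoters. OR4F6 at 15q, an olfactory receptor gene, was the one above 50% at Baseline and changed by -24.0 and -37.9 points. The other 15, DUX4 among them, were not tested here. DUX4 encodes an embryonic transcription factor and lies in the D4Z4 repeats of 4q and 10q. The window of 4q with 8 copies (2903 CpGs) had 22 to 119 reads per library, and one window of 10q with 7 copies (2373 CpGs) had 0 to 40, so neither was used. Another window of 10q with 7 copies, at 248 to 468 reads, was at 64.8%, 54.7% and 58.7% at Baseline and 49.2%, 42.8% and 27.7% at Knockdown in the clones. In R1 and R2 it was at 51.6% and 57.3%, and then 25.3% and 25.0%. The outermost window of 4q, with DUX4 itself and 50 to 192 reads over 601 CpGs, was at 91.9%, 90.4% and 65.3% at Baseline and 66.0%, 64.9% and 46.6% at Knockdown in the clones. In R1 and R2 it was at 79.3% and 80.3%, and then 47.6% and 52.7%. Window 4 of 4q, with the copy DUX4L9 and at least 2749 reads, was at 83.4% to 90% at Baseline and 53.3% to 73.1% at Knockdown. The DUX4 windows were chosen after their values were seen, and since the copies are near identical, the placing of reads among them is uncertain.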

How the data were processed

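The 15 whole-genome bisulfite libraries were aligned to hg38 and called with Meth10X 1.2, per the submitters' processing notes. The authors deposited, for each CpG and library, read counts that were not normalized: methylated reads and all reads, over 27852739 autosomal CpGs. They also deposited domain lists, called per library with MethylSeekR and completed to HMDs with bedtools 2.25.0, with no score used here.

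Both counts were summed over 50 kb windows counted inward from the first and last CpG of each autosome, and mC is the summed methylated reads over all reads. Windows needed 50 reads in every library. Low-density CpGs have no CpG within 20 bp. PMD windows were 50% or more PMD at Baseline in any population. Pooled differences between subtelomere and interior, in level, change, share of Baseline kept and share of loss regained, were taken within a population and tested by exact sign-flip or permutation tests over populations, with 12 tests adjusted together by Benjamini-Hochberg. Windows were tested with edgeR 4.0.16 (glmQLFit and glmQLFTest, R 4.3.3) on methylated and unmethylated counts in 1 fit of all 53629 windows and 15 libraries, with population as a block, and promoters (at least 5 CpGs and 50 reads) in a second fit of 17849. On simulated counts for 5000 windows, the fit recovered 96% of changes of 1 and 100% of changes of 2 on the log2 odds scale, with 4.39% false calls. Those counts changed only 200 windows, for shUHRF1 Knockdown alone and equally in all clones. They do not cover unequal clones, changes in nearly all windows or the difference between shRNAs. limma 3.58.1 on log2 ratios with a pseudocount of 1 was an alternative.

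The block stands for population, since its libraries come from the same cells. Baseline deviations correlated with those at Knockdown and Recovery by 0.684 and 0.778 in Cl.3, 0.721 and 0.773 in Cl.6, and 0.743 and 0.739 in Cl.9, but by 0.0172 and 0.0315 in R1 and R2, where the numbers name replicates.

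Genes and sequences are from GENCODE 44 and hg38. Named ends are the 4 highest and lowest at Baseline and in the Knockdown change of each shRNA, named windows the 4 largest and smallest falls, and named promoters the 8 largest falls per shRNA and the 6 smallest with shUHRF1, at a Baseline of 70% or more. Listed genes were named at 50% or more. Members and lists were chosen with earlier results of these data known. Coverage was lower near chromosome ends than in the interior, which widens the error of those windows.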

Additional observations from a re-analysis of the deposited data

Results flagged for a closer look

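The subtelomeric change relative to the interior at Knockdown, pooled over windows, differed between shRNAs by 2.74 points (exact permutation test, p = 0.2, the smallest possible). Pooled in this way, every clone lay on the smaller-fall side and both bulk populations on the larger-fall side. By end, the fall was larger than in the own interior at 21, 20 and 21 of 39 ends in Cl.3, Cl.6 and Cl.9, and at 26 in R1 and in R2. At Recovery the same difference between shRNAs was 1.57 points (exact permutation test, p = 0.2). The regained share differed by 5.81 points, higher in the subtelomeres in all 3 clones and slightly lower in both bulk populations (exact permutation test, p = 0.2). By edgeR's test of the difference between shRNAs, 609 of 748 windows (81.4%, against 63.5% of all windows) and 70 of 617 promoters (11.3%, against 9.64% of all promoters) passed, all with the smaller fall in the clones. The median log2 odds ratio over windows was 0.918, close to the 0.890 of all windows. In each case shRNA and clonal origin cannot be told apart.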

How the results depend on the processing

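The Baseline difference, 6.21 points, was 3.35 against windows 2 to 5 Mb and 3.10 against those 10 to 20 Mb from the ends and 2.96 with the interior reweighted, and turned to -2.52 within 100 kb of the ends, -2.70 without PMD windows, and -0.429 and -2.64 at low- and high-density CpGs without them. The shUHRF1 change difference, 0.585 points at Knockdown, was 0.0379 with equal weight per window and turned to -2.55 at low-density CpGs, -0.0920 with the interior reweighted to the subtelomeric CpG counts, -0.0765 on the log2 odds scale, and -0.508 and -0.0651 at low- and high-density CpGs without PMD windows. At Recovery it turned to -0.812, -0.270, -0.00156, -0.627 and -0.320 in the same order. The shDNMT1 difference at Knockdown turned to 0.0511 at high-density CpGs, 1.2 within 100 kb, 1.89 without PMD windows, 0.235 reweighted and 0.767 at high-density CpGs without PMD windows, and at Recovery to 0.0958 without PMD windows, 0.196 reweighted and 0.0577 at low-density CpGs without them. The difference in the share of Baseline kept, 2.17 points, turned to -0.57 and -0.61 at low- and high-density CpGs without PMD windows. The regained difference with shUHRF1, 5.42 points, was 0.12 without PMD windows and turned to -0.889 within 100 kb, -0.728 reweighted, and -1.20 and -1.26 at low- and high-density CpGs without PMD windows, and with shDNMT1 to 0.109 with equal weight per window, 0.109 without PMD windows, 0.533 reweighted and 0.132 at low-density CpGs without them. The cause was not tested. The settings by density without PMD windows, the promoter alternatives, those for the share of Baseline kept and the setting without 21q were chosen after seeing the data.

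With no replicate block (the population block left out), windows called fell from 739 to 491 (shUHRF1 Recovery, 65.6% against 69.0% of all windows) and from 609 to 0 (difference between shRNAs), and promoters from 402 to 196 and from 70 to 0. limma called 2 windows for shDNMT1 Recovery (0.267%, against 0.0242% of all) and 11 promoters for the difference (1.78%, against 2.46%). Low-density CpGs gave 386 windows for the difference (51.9%, against 54.0% of all windows and 45.5% of the interior), and 100 kb windows, being fewer, gave 381, 381, 380 and 315, the last 82.7% against 65.4% of all. Leaving out 1 population gave 0 to 715 windows (95.6%, against 93.6% of all) and 0 to 155 promoters (25.1%, against 22.8%) for the difference. For shUHRF1 Recovery it gave 670 (89.6%, against 92.7%) to 743 windows (99.3%, against 99.6%) and 283 (45.9%, against 43.8%) to 427 promoters (69.2%, against 69.3%). It gave 404 (65.5%, against 70.9%) to 498 promoters (80.7%, against 85.7%) for shUHRF1 Knockdown and 396 (64.2%, against 71.5%) to 514 (83.3%, against 87.9%) for shDNMT1 Knockdown. Without the copies at 21q, the terminal repeat core changed by -0.51 points in the clones and -60.8 in the bulk populations. Depth limits the outermost windows most.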
